A study of Mus musculus with 12 samples.

Results

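The mRNA levels of 10 genes of the unfolded protein response were followed through the day in mouse liver, and their 24 hr and 12 hr components were compared. The genes are *Hspa5*, *Hsp90b1*, *Pdia4*, *Dnajb9*, *Sdf2l1*, *Creld2*, *Herpud1*, *Xbp1*, *Atf4* and *Ddit3*, taken by symbol as rows of the table. They are 10 of the 20069 genes in the deposited table, and all 10 were among the 10198 genes that passed the expression minimum of 8 reads per base pair (rpbp) in at least 1 sample. The 12 samples are livers of wild-type C57BL/6 mice, male and adult (3 to 6 months), which were kept for 2 weeks or longer in 12 hr of light and 12 hr of darkness. Polyadenylated RNA was sequenced at ZT2, ZT6 and ZT10 in the light (ZT0 is lights on) and at ZT14, ZT18 and ZT22 in the dark, in 2 series, so that each time point has 2 samples, here called series 1 and series 2. The mice were not treated beyond the light cycle, and since the liver was removed, different time points are different animals. How many animals gave each sample is not given in the sources used here, so p-values measure the spread between samples, which may be technical in part.

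The unfolded protein response adjusts the folding capacity of the endoplasmic reticulum (ER) to the load of secreted proteins. The sensors IRE1 (*Ern1*), PERK (*Eif2ak3*) and ATF6 are held inactive by the chaperone BiP and are released when unfolded proteins bind BiP. IRE1 splices *Xbp1* mRNA, PERK raises the translation of *Atf4*, and cleaved ATF6 enters the nucleus. The resulting factors activate genes of chaperones, folding enzymes and ER-associated degradation, and hepatocytes, which secrete most plasma proteins, depend on this system.

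Promoter sequence is shown for the 6 members that hold a known element, because such elements are what the factors of the response, or of the clock, bind. The windows are those of RefSeq on GRCm38.p6, 250 bases before to 50 after the start site, and all 10 members had one. Each sequence is on the strand of its gene and ends before the start site, and capitals mark the elements. In *Hspa5* they mark TGACGTG, the UPRE core, and then the ER stress response element (ERSE), which is CCAAT, any 9 bases, and CCACG. In *Hsp90b1* they mark an ERSE on the strand of the gene and another on the opposite strand, and in *Creld2* an ERSE on the opposite strand. In *Herpud1* they mark ERSE-II (ATTGG, 1 base, CCACG) and an ERSE whose last base was left free. In *Pdia4* they mark the latter form on the opposite strand, and in *Dnajb9* the E-box CACGTG, the element of CLK:BMAL1.
Hspa5, chr2:34771913-34772063, plus strand: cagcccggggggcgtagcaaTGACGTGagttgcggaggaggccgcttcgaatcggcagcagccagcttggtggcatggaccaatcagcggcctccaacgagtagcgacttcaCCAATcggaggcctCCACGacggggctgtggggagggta
Hsp90b1, chr10:86705513-86705676, minus strand: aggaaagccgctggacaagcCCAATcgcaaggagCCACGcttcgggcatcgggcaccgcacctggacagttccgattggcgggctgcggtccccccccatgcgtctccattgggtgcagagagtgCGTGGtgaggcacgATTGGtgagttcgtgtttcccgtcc
Creld2, chr15:88819500-88819558, plus strand: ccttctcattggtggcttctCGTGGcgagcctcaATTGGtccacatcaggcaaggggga
Herpud1, chr8:94386357-94386428, plus strand: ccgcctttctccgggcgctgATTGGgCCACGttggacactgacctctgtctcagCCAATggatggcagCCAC
Pdia4, chr6:47813582-47813639, minus strand: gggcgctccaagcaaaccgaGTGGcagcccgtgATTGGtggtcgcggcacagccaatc
Dnajb9, chr12:44210150-44210195, minus strand: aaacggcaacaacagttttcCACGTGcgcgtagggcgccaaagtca

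Each element was searched on both strands of 32851 promoter windows. The ERSE was in 39 of them (0.119%), among them those of *Hspa5*, *Hsp90b1* and *Creld2*. With the last base free, a form that contains the ERSE, it was in 120 (0.365%), including the same 3 members, *Herpud1* and *Pdia4*. ERSE-II was in 12 windows (0.0365%), one of them that of *Herpud1*. TGACGTG was in 661 (2.01%) and CACGTG in 2349 (7.15%). TGATGNAA, the amino acid response element bound by ATF4, was in 1304 (3.97%), including that of *Herpud1*, where it lies 112 to 105 bases before the start site and is not shown. None of these letters was in the windows of *Xbp1*, *Ddit3*, *Atf4* and *Sdf2l1*. A match is a description of the sequence and not a measured binding site.

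The tissue label was checked first. Hepatocyte genes were the most abundant of the marker lists, with the 6 genes (*Alb*, *Ttr*, *Apoa1* and others) summing to between 90129 and 170946 rpbp per sample. The lists of 6 Kupffer cell genes (273 to 568 rpbp), 6 genes of the sinusoidal endothelium (191 to 230.4 rpbp) and 5 stellate cell genes (227 to 298 rpbp) were low, and no T cell gene passed the minimum. Samples of the same time point correlated with r = 0.9753 to 0.9871 (log2 scale, across genes), and samples of different time points with r = 0.9204 to 0.9812. The table holds scaled coverage and not counts, so no counting error was computed, and the spread between the 2 samples of a time point is the only error given. In whole liver, fewer cells of a type and less RNA per cell cannot be told apart.

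**Figure D1:**
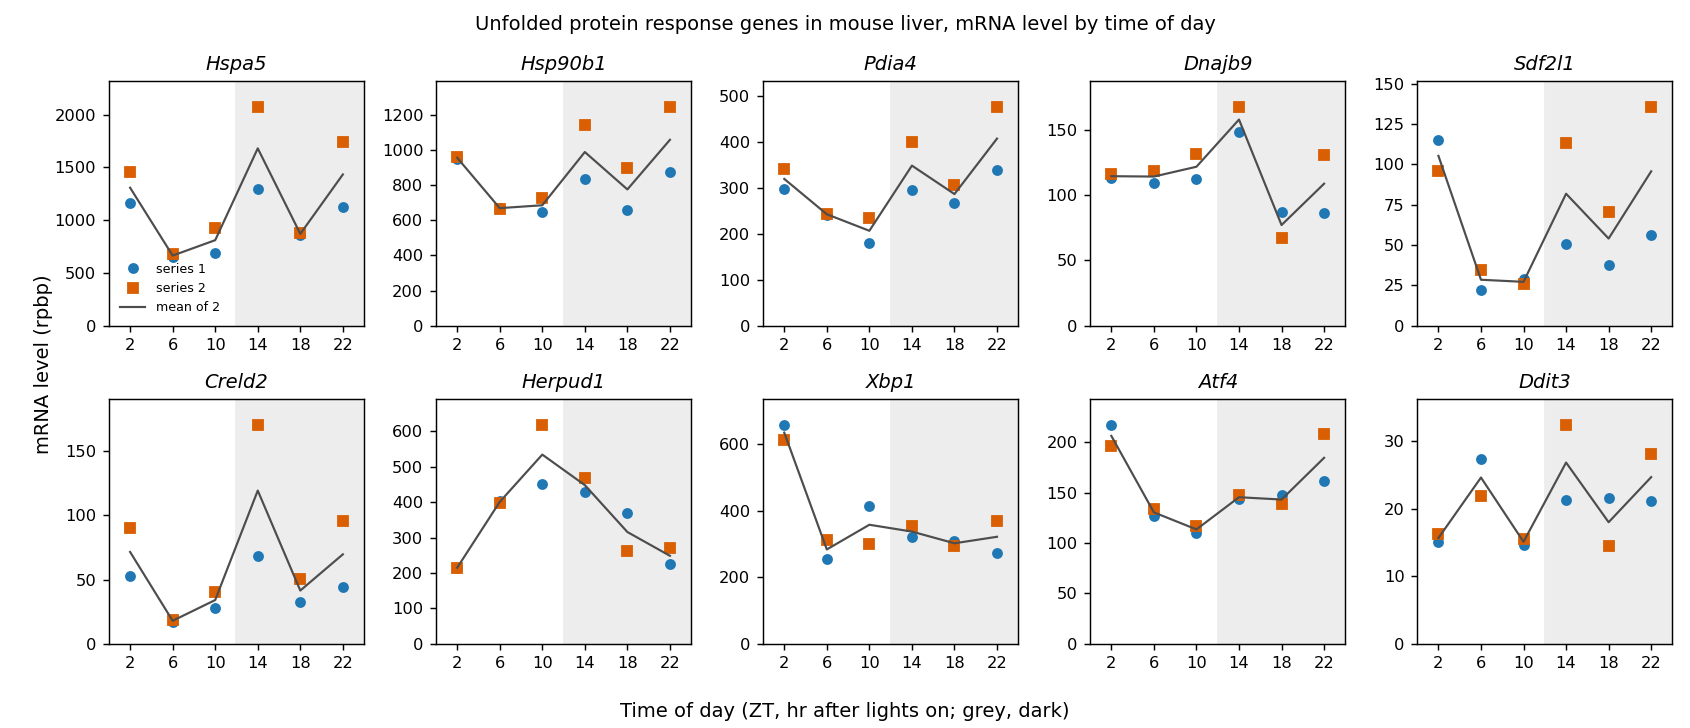
mRNA level in rpbp (vertical axis, starting at 0) of the 10 genes against time of day in hr (horizontal axis), with series 1 as circles, series 2 as squares, the mean of the 2 as a line and the dark phase in grey. *Hspa5* and *Creld2* have a high point at ZT14 and another between ZT22 and ZT2, *Herpud1* has a single high point at ZT10, and *Xbp1* stands high at ZT2 alone.

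The levels spanned a wide range. Because rpbp is a coverage per base of exon, the level scale allows genes to be compared. *Hspa5* had the highest mean over the 12 samples (1128 rpbp, rank 144 of 20069 genes), followed by *Hsp90b1* (856 rpbp), *Xbp1* (372 rpbp), *Herpud1* (361 rpbp) and *Pdia4* (302 rpbp). Lower levels were found for *Atf4* (154 rpbp), *Dnajb9* (116 rpbp), *Sdf2l1* (65.5 rpbp), *Creld2* (59.0 rpbp) and *Ddit3* (20.8 rpbp, rank 5430). Within a sample, *Hsp90b1* was above *Xbp1* and *Pdia4* above *Atf4* in 12 of 12 samples. The other neighbours in this order changed places in some samples, for example *Hspa5* and *Hsp90b1*, with *Hspa5* the higher in 10 of 12, and *Xbp1* and *Herpud1*, with *Xbp1* the higher in 5 of 12. *Ddit3*, whose product CHOP promotes cell death under lasting ER stress, was never above 32.4 rpbp.

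*Hspa5* (chr2:34627490-34632051, mm9, plus strand; 3513 exon bases) encodes BiP, the main chaperone of the ER and the regulator of its sensors. Its level was 1158 and 1457 rpbp at ZT2 (series 1 and then series 2), 649 and 679.7 at ZT6, 692 and 929 at ZT10, 1291 and 2069.9 at ZT14, 860.2 and 879.9 at ZT18, with 1123 and 1743 at ZT22. The samples of ZT2, ZT14 and ZT22 were all higher than those of ZT6, ZT10 and ZT18, so that the level rose and fell more than once a day. Between ZT6 (664 ± 21.7 rpbp, SD, n = 2) and ZT14 (1680.4 ± 551 rpbp) the means differed 2.53-fold, and the samples of the 2 time points did not overlap. At ZT14 the sample of series 2 was 1.60-fold that of series 1, and at ZT22 1.55-fold.

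*Creld2* (chr15:88650076-88657111, plus strand), which encodes a small folding factor of the ER, had the pattern of *Hspa5* with a wider swing. It was at 52.8 and 90.2 rpbp at ZT2, 17.4 and 18.6 at ZT6, 27.7 and 40.5 at ZT10, 68.6 and 170.0 at ZT14, 32.3 and 50.7 at ZT18, with 44.1 and 95.3 at ZT22. The means of ZT14 (119 ± 71.7 rpbp, SD, n = 2) and ZT6 (17.96 ± 0.849 rpbp) differed 6.64-fold. Series 2 was higher than series 1 at all 6 time points, 2.48-fold at ZT14 and 1.92-fold in the mean of the series. Over the 12 samples, the log2 levels of *Creld2* and *Hspa5* had a Pearson's r of 0.97, given without a test since the samples share the time of day and the series.

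*Sdf2l1* (chr16:17130231-17132476, minus strand) encodes a cofactor of BiP and its DnaJ partners. Its values were 115 and 95.7 rpbp at ZT2, 22.3 and 34.7 at ZT6, 28.8 and 25.6 at ZT10, 50.5 and 113 at ZT14, 37.4 and 70.8 at ZT18, with 56.0 and 136 at ZT22. Both samples of ZT6 and ZT10 lay below every other sample, and ZT2 (105 ± 13.7 rpbp, SD, n = 2) was 3.87-fold higher than ZT10 (27.2 ± 2.21 rpbp). In the dark phase the series differed, with series 2 at 2.24-fold series 1 at ZT14 and at 2.42-fold at ZT22.

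The other chaperones differed less between time points. *Hsp90b1* (GRP94, chr10:86152954-86168254, minus strand), the HSP90 of the ER, was lowest at ZT6 (669 ± 4.04 rpbp, SD, n = 2) and highest at ZT22 (1059 ± 262 rpbp), a difference of 1.58-fold. Its exons share 632 bases with other annotated genes, one of them (1810014B01Rik) on the opposite strand, and the coverage was counted without strand, so reads of these genes cannot be told apart there. *Pdia4* (chr6:47746141-47763511, minus strand), a disulfide isomerase, rose from 207 ± 38.1 rpbp at ZT10 to 407 ± 96.5 rpbp at ZT22 (1.97-fold). Its exons share 14 bases with *Mir704*. Series 2 was higher than series 1 at all 6 time points for *Pdia4* and *Hspa5*, and at 5 for *Hsp90b1*. *Dnajb9* (ERdj4, chr12:45306884-45311055, minus strand), a DnaJ cochaperone that restrains IRE1, was highest at ZT14 (148 and 167 rpbp) and lowest at ZT18 (87.2 and 67.0 rpbp), with 86.4 to 131 rpbp in the 8 other samples. Its means of ZT14 and ZT18 differed 2.05-fold.

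*Herpud1* (chr8:96910338-96919277, plus strand), a membrane protein of the ER-associated degradation complex, had another course. It was at 216 and 215 rpbp at ZT2, 404 and 399 at ZT6, 452 and 617 at ZT10, 429 and 468 at ZT14, 369 and 263 at ZT18, with 227 and 271 at ZT22. The level rose through the light phase to ZT10 and fell through the night, with 1 high and 1 low point. ZT10 (535 ± 117 rpbp, SD, n = 2) was 2.48-fold higher than ZT2 (215 ± 0.651 rpbp), and the samples did not overlap. Across samples its log2 level ran against that of *Atf4* (r = −0.80), *Sdf2l1* (r = −0.63) and *Pdia4* (r = −0.50), also given without a test.

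Among the transcription factors, *Xbp1* (chr11:5420662-5425896, plus strand) stood out at a single time point. Its values were 655 and 612 rpbp at ZT2, 256 and 310.4 at ZT6, 415 and 300.2 at ZT10, 321 and 353 at ZT14, 309 and 295 at ZT18, with 273 and 369 at ZT22. Both samples of ZT2 lay above every other sample, and those overlapped each other. The mean at ZT2 (634 ± 30.7 rpbp, SD, n = 2) was 2.24-fold that at ZT6 (283 ± 38.5 rpbp). The coverage is summed over the gene and does not separate spliced from unspliced *Xbp1* mRNA.

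*Atf4* (chr15:80085614-80087970, plus strand) encodes the factor translated when PERK is active. It was at 217 and 196 rpbp at ZT2, 127 and 134 at ZT6, 110.3 and 117 at ZT10, 143 and 148 at ZT14, 148 and 139 at ZT18, with 161 and 208 at ZT22. The fall from ZT2 (206 ± 14.7 rpbp, SD, n = 2) to ZT10 (114 ± 4.61 rpbp) was 1.82-fold. *Ddit3* (chr10:126727830-126733344, plus strand) lay between 14.5 and 32.4 rpbp, with a mean of 26.9 ± 7.78 rpbp at ZT14 and 15.1 ± 0.622 rpbp at ZT10. Its exons share 81 bases with *Mars* and another gene on the opposite strand, which unstranded counting cannot separate.

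Whether time of day changed a level beyond the spread of the 2 samples of a time point was tested for all genes with limma on log2(rpbp + 1), with the p-value adjusted by Benjamini-Hochberg over the 10198 genes. The test called 8 of the 10 members at an adjusted p below 0.05, against 2076 genes in all (20.4%). The lowest adjusted p were those of *Herpud1* (0.00588), *Atf4* (0.00785), *Xbp1* (0.0129) and *Hspa5* (0.0255). *Creld2* (0.0330), *Pdia4* (0.0425), *Dnajb9* (0.0438) and *Sdf2l1* (0.0457) were close to the threshold, and *Ddit3* (0.0836) and *Hsp90b1* (0.115) missed it. The calls of *Hspa5*, *Creld2*, *Pdia4*, *Dnajb9* and *Sdf2l1* were each lost without the expression minimum and without some single samples. *Herpud1* and *Atf4* were called with any 1 of the 12 samples left out, whereas the count of members was 2 without either sample of ZT2, 3 without either sample of ZT6, and 5 without ZT10 of series 1 or ZT14 of series 2. Over all genes, the count fell from 2076 to 928 and 1012 without a sample of ZT2, to 1113 and 1133 without one of ZT6, and to 1942 and 1467 without those of ZT10 and ZT14.

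With 6 time points every 4 hr, the differences between the time means split into components of 24, 12 and 8 hr. The amplitude is the distance from the middle of the fitted cosine to its peak, on the scale of log2(rpbp + 1). The 24 hr amplitude was 0.63 ± 0.07 (SE) for *Herpud1*, with its peak at 11.2 hr, and 0.35 ± 0.05 for *Atf4*, with its peak at 23.2 hr. These are differences between peak and trough of 2.40-fold and 1.62-fold. The test of the 24 hr component in limma called 4 of the 10 members, against 21.2% of all genes. The adjusted p was 0.00135 for *Herpud1*, 0.00344 for *Atf4*, 0.0307 for *Pdia4* (amplitude 0.36 ± 0.08, peak at 20.9 hr) and 0.0440 for *Sdf2l1* (0.78 ± 0.19, peak at 21.4 hr). *Herpud1* and *Atf4* kept their call when any 1 sample was left out. The call of *Pdia4* was lost without either sample of ZT2 or ZT6, ZT10 of series 1, or ZT18 or ZT22 of series 2 (adjusted p up to 0.0926), and that of *Sdf2l1* was lost without the same samples or ZT10 of series 2 (up to 0.137).

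The 12 hr amplitude was highest in *Creld2* (0.95 ± 0.19, SE), followed by *Sdf2l1* (0.72 ± 0.19), *Hspa5* (0.54 ± 0.11) and *Xbp1* (0.39 ± 0.07). Between peak and trough, the 12 hr component amounted to 3.72-fold for *Creld2*, 2.12-fold for *Hspa5* and 1.72-fold for *Xbp1*. The limma test of this component called these 3 members of 10, against 5.99% of all genes, with an adjusted p of 0.0348 for *Xbp1*, 0.0384 for *Hspa5* and 0.0454 for *Creld2*. *Sdf2l1* had an adjusted p of 0.101. The 3 calls did not hold for every set of samples, since none of them remained without either sample of ZT2, ZT6 or ZT18 or without ZT14 of series 2, and that of *Xbp1* was also lost without ZT14 of series 1. The adjusted p then reached 0.127 for *Hspa5*, 0.126 for *Xbp1* and 0.138 for *Creld2*, while the p without adjustment stayed at 0.0115 or lower for the 3 genes. With 1 sample left out, the 12 hr amplitudes remained between 0.45 and 0.64 for *Hspa5*, 0.36 and 0.43 for *Xbp1* and 0.76 and 1.14 for *Creld2*. Without ZT22 of series 2, 6 members were called, namely the 3 genes, *Atf4*, *Dnajb9* and *Sdf2l1*, and without ZT22 of series 1 these 6 but *Sdf2l1*. Over all genes, 840 and 655 were called in these fits, against 611 with all samples and 108 to 412 in the 7 fits without any of the 3 calls. None of the 3 was called without the expression minimum or without a trend in the prior variance (adjusted p up to 0.0968). A period of 6 hr cannot be told apart from 12 hr at this sampling interval.

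**Figure D2:**
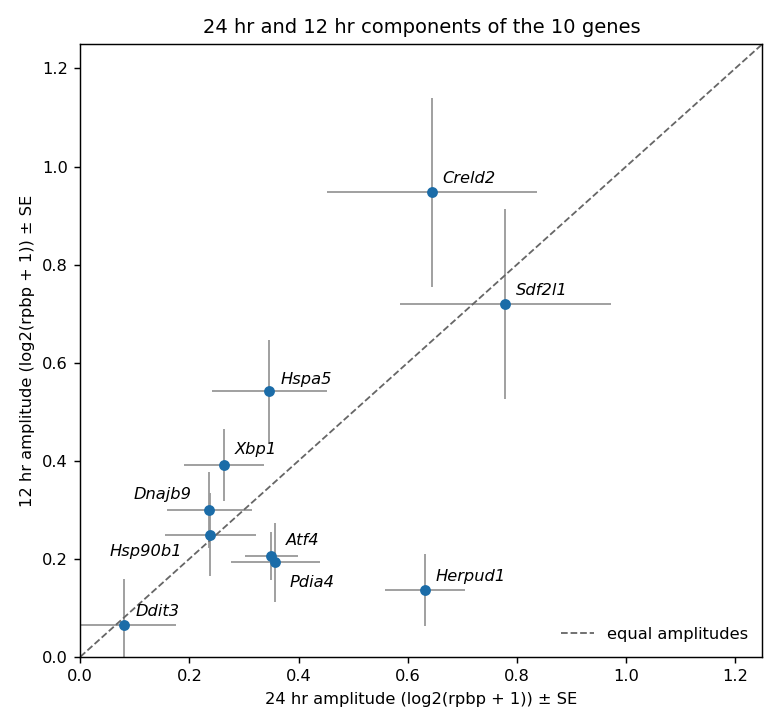
12 hr amplitude (vertical axis) against 24 hr amplitude (horizontal axis) of the 10 genes, both on the scale of log2(rpbp + 1) with the SE from limma as bars and a broken line for equal amplitudes. *Creld2*, *Hspa5*, *Xbp1*, *Dnajb9* and *Hsp90b1* lie above the line, and *Herpud1* lies farthest below it.

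The peak hours of the 12 hr component were close to each other. In 8 of the 10 members it peaked between 0.888 and 1.58 hr, and thus again 12 hr later, shortly after lights on and after lights off. The exceptions were *Herpud1* (8.28 hr) and *Ddit3* (4.58 hr), whose 12 hr amplitudes were 0.14 ± 0.07 and 0.06 ± 0.09 (SE). For comparison, 2296 of the 10198 genes (22.5%) had their 12 hr peak between 0.5 and 2 hr, a window set after the members' values were seen. Since these 8 members come from the same 12 samples, their common peak hour is not 8 independent observations. For each series alone, the 12 hr component was fitted to rpbp and not on the log2 scale. In *Hspa5* it then peaked at 1.38 hr in series 1 and at 0.856 hr in series 2, and in *Creld2* at 1.42 and 1.33 hr. The series were further apart for *Atf4* (2.06 and 0.499 hr), *Dnajb9* (1.95 and 0.392 hr) and *Pdia4* (1.795 and 0.305 hr). The peaks of the 24 hr component were spread further. They lay at 18.5 hr for *Creld2*, 19.5 hr for *Hspa5*, 20.9 hr for *Hsp90b1* and *Pdia4*, 21.4 hr for *Sdf2l1*, 23.2 hr for *Atf4*, 2.23 hr for *Xbp1*, 9.46 hr for *Dnajb9* and 11.2 hr for *Herpud1*.

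**Figure D3:**
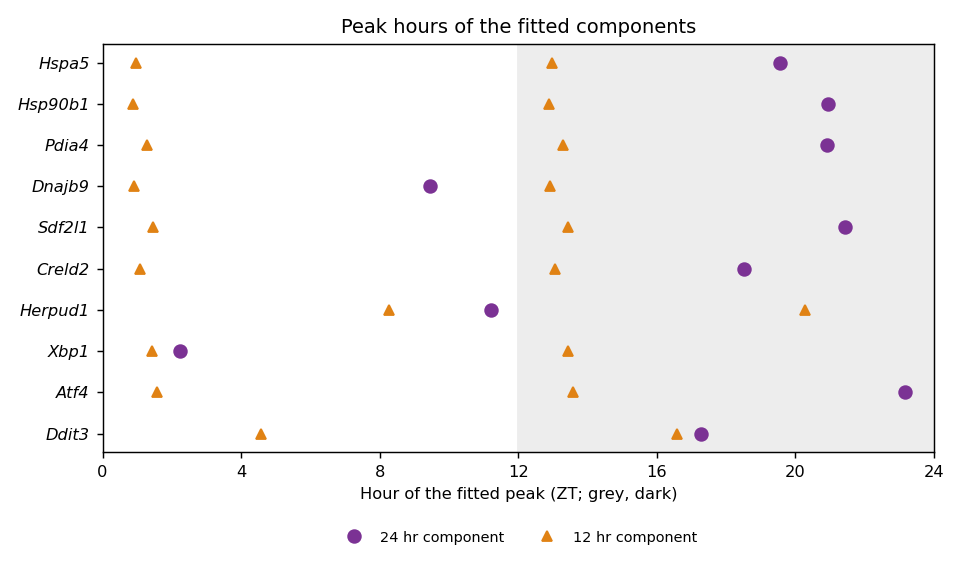
Hour of the fitted peak (horizontal axis, dark phase in grey) of the 24 hr component (circles) and of the 12 hr component (triangles, which recur 12 hr later) for the 10 genes on the vertical axis. The triangles of 8 genes stand between 0.888 and 1.58 hr, whereas the circles range over the day.

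*Herpud1* was the member with the purest 24 hr course. The 24 hr component took 94.2% of the variance of its time means, the 12 hr component 4.41% and the 8 hr component 1.43%. In *Atf4* the shares were 74.3% at 24 hr and 25.6% at 12 hr, and in *Pdia4* 62.5% and 18.2%, with 19.3% at 8 hr. The order was turned in *Creld2* (31.3% at 24 hr and 67.8% at 12 hr), *Hspa5* (27.0% and 66.0%) and *Xbp1* (23.2% and 51.6%, with 25.1% at 8 hr). *Hsp90b1* (43.8% and 47.9%), *Sdf2l1* (53.7% and 45.8%) and *Dnajb9* (30.1% and 48.6%, with 21.3% at 8 hr) held both. *Ddit3* had 94.6% of the variance of its means at 8 hr, where ZT6, ZT14 and ZT22 alternate with the other time points, but its time of day was not called by limma (adjusted p = 0.0836).

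The difference between the 2 amplitudes was tested for each gene in the same limma fit. The test is approximate where an amplitude is small. Examples are *Herpud1* at 12 hr (0.14 ± 0.07, SE) and *Ddit3* at 24 hr (0.08 ± 0.09) and 12 hr (0.06 ± 0.09). None of the 10 members was called at an adjusted p below 0.05, against 116 of all genes (1.14%), 107 of them with the larger amplitude at 24 hr and 9 at 12 hr. One member, *Herpud1*, had a p without adjustment below 0.05. Its 24 hr amplitude exceeded that at 12 hr by 0.49 (95% interval 0.26 to 0.73, adjusted p = 0.0638), and the adjusted p ranged from 0.0333 to 0.283 with 1 sample left out, with a call without ZT10 or ZT18 of series 1. For *Hspa5* the difference was −0.19 (−0.53 to 0.14), for *Xbp1* −0.13 (−0.36 to 0.10) and for *Creld2* −0.30 (−0.91 to 0.31), all with the larger amplitude at 12 hr but with intervals that include 0. *Atf4* (0.14, from −0.01 to 0.30) and *Pdia4* (0.16, from −0.09 to 0.42) had the larger amplitude at 24 hr, also with intervals that include 0. The intervals of *Sdf2l1* (−0.55 to 0.67) and *Hsp90b1* (−0.28 to 0.26) allow a larger amplitude at either period. The 12 hr amplitude was the larger in 5 of the 10 members and in 4043 of all genes (39.6%), and the medians of the members were 0.35 at 24 hr and 0.27 at 12 hr, against 0.15 and 0.12 over all genes.

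**Figure D4:**
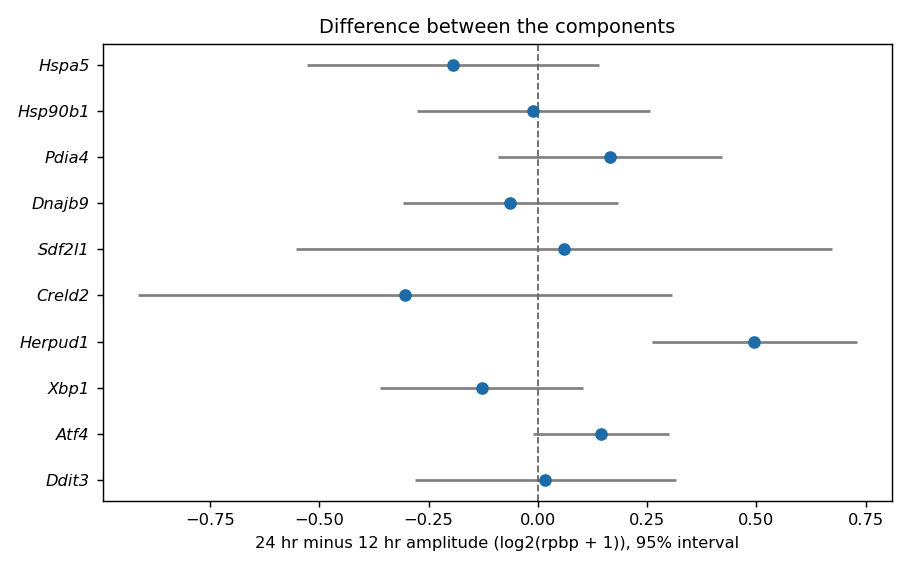
Difference between the 24 hr and the 12 hr amplitude (horizontal axis, log2(rpbp + 1) scale) of the 10 genes, with points for the estimates, bars for the 95% intervals from limma and a broken line at 0. The interval of *Herpud1* lies above 0, from 0.26 to 0.73, and those of the 9 other genes include 0.

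The rhythm criteria of the study were then applied to both periods. F24 and F12 are the shares of the variance of the 12 values taken by a cosine of 24 or 12 hr, and a gene is rhythmic with a share above 0.45, a permutation p below 0.05 and a highest value over 1.5-fold the lowest. At 24 hr, *Herpud1* (F24 = 0.834, permutation p = 0.00016, adjusted p = 0.0158) and *Atf4* (F24 = 0.660, permutation p = 0.0076, adjusted p = 0.0771) were rhythmic, 2 of 10 members against 19.1% of all genes. *Pdia4* missed the limits for both the share, narrowly with F24 = 0.446, and the p (permutation p = 0.0622). At 12 hr, *Hspa5* alone was rhythmic (F12 = 0.481, permutation p = 0.0482, adjusted p = 0.428), 1 of 10 members against 7.61% of all genes. *Xbp1* (F12 = 0.437, permutation p = 0.0691) and *Creld2* (F12 = 0.437, permutation p = 0.0429) were just outside. No gene of the 10198 had an adjusted permutation p below 0.05 at 12 hr. The call of *Hspa5* held in 3 of 12 sets with 1 sample left out, those without ZT2 or ZT10 of series 1 or ZT22 of series 2, with a permutation p of up to 0.101 in the others, and it was lost with size factors by the median of ratios. *Herpud1* and *Atf4* were rhythmic at 24 hr in all 12. In each series alone, F12 of *Hspa5* was 0.649 and 0.643, but 6 values cannot give a permutation p below 0.0667 at 12 hr.

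Genes of other cell types were read beside these patterns. Hepatocyte genes also varied, with 4 of 6 called for time of day by limma (20.4% of all genes). Their sum was highest at ZT14 and lowest at ZT2. Their part in the results was not tested. Of the cholangiocyte list, 2 of 5 genes passed the minimum and *Sox9* was called (adjusted p = 0.0129 in limma). *Sox9* was at 1.52 to 11.3 rpbp and passed the minimum through its high samples, so its call carries no weight. The sum of the list was highest at ZT2 (179.7 rpbp) and lowest at ZT6 (65.7 rpbp), the time points at which *Xbp1* was highest and lowest. *Kdr* was called among the 6 genes of the sinusoidal endothelium (adjusted p = 0.0444). The part of these cells in the results was not tested. None of the 5 Kupffer cell, 4 stellate cell or 2 blood genes that passed the minimum was called, although the sum of the Kupffer cell list was highest at ZT2 (567 rpbp), where *Xbp1*, *Atf4* and *Sdf2l1* were highest, and lowest at ZT18 (331 rpbp). *Ela1* (*Cela1*), the only gene of the pancreas list in the table, was at 84.0 rpbp at ZT14, 78.5 at ZT22 and 76.5 at ZT2, and at 29.7 rpbp at ZT6 (adjusted p = 0.0841 in limma), an order near that of *Hspa5*. The pancreatic genes that were looked up after these values were seen, *Ctrl*, *Pnliprp1* and *Reg1*, were at most at 1.24, 0.68 and 0.88 rpbp. In the plasma cell and B cell list, *Derl3*, itself a gene of ER-associated degradation, varied from 1.04 to 40.2 rpbp, while the other 5 genes summed to 3.92 to 12.6 rpbp and were highest at ZT6.

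The wider pathway was described through 5 lists by role, 63 genes without the members. The table held 62 of them, and 52 passed the expression minimum. Time of day was called by limma for 21 of the 52 (20.4% of all genes), the 24 hr component for 14 (21.2%) and the 12 hr component for 10 (5.99%). By the study's criteria, 7 were rhythmic at 24 hr (19.1%) and 15 at 12 hr (7.61%). The lists were chosen with results of these data known, so these shares are a description. Of the 52 genes, 6 passed the minimum with a lowest time mean under 8 rpbp (*Derl3*, *Trib3*, *Chac1*, *Gdf15*, *Fgf21* and *Sesn2*). Because such a gene enters through its high time points, its calls carry no weight, and they are 3 of the 21 for time of day, 2 of the 14 for 24 hr, 0 of the 10 for 12 hr, 2 of the 7 rhythmic at 24 hr and 2 of the 15 rhythmic at 12 hr.

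All 17 ER chaperones and folding enzymes passed the minimum. Limma called 9 for time of day (20.4% of all genes), 5 for 24 hr (21.2%) and 4 for 12 hr (5.99%). Their median amplitude was 0.22 at 24 hr and 0.25 at 12 hr, against 0.15 and 0.12 over all genes. By the study's criteria 1 was rhythmic at 24 hr (19.1% of all genes) and 5 at 12 hr (7.61%). *Armet* (*Manf*), a secreted factor that binds BiP, went from 45.1 ± 1.05 rpbp at ZT6 (SD, n = 2) to 127 ± 35.9 rpbp at ZT14, with a 12 hr amplitude of 0.72 ± 0.11 (SE). *Dnajc3a* (*Dnajc3*, P58IPK), an inhibitor of PERK and a cochaperone, went from 148 ± 8.09 rpbp at ZT6 to 244 ± 19.3 rpbp at ZT14. *Dnajb11* (ERdj3), a DnaJ partner of BiP, went from 50.1 ± 4.64 rpbp at ZT6 to 101 ± 6.56 rpbp at ZT2. Their 12 hr peaks lay at 0.985, 1.07 and 1.11 hr, near that of *Hspa5*.

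Of the 11 tested genes of ER-associated degradation, limma called 4 for time of day (20.4% of all genes), 1 for 24 hr (21.2%) and 2 for 12 hr (5.99%). By the study's criteria 0 were rhythmic at 24 hr (19.1% of all genes) and 5 at 12 hr (7.61%). *Edem2*, a mannosidase-like protein that marks misfolded glycoproteins, was at 47.96 ± 3.51 rpbp at ZT18 and 78.2 ± 3.62 rpbp at ZT2. *Syvn1* (HRD1), the ubiquitin ligase of the complex in which HERPUD1 works, was at 39.3 ± 2.57 rpbp at ZT6 and 93.7 ± 32.1 rpbp at ZT14. *Derl3*, a derlin of the membrane channel, was at 1.48 ± 0.622 rpbp at ZT6 and 30.6 ± 13.5 rpbp at ZT2, with a 12 hr amplitude of 1.43 ± 0.31 (SE), and it is 1 of the 4 genes called for time of day and 1 of the 5 rhythmic at 12 hr. None of these 3 had the course of *Herpud1*, since each was higher at ZT2 than at ZT6, while *Herpud1* was lowest at ZT2.

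Of the 5 tested sensors and processing enzymes, 2 were called for time of day (20.4% of all genes). *Crebl1* (*Atf6b*), a relative of ATF6, was at 21.6 ± 0.594 rpbp at ZT2 and 11.6 ± 1.30 rpbp at ZT6 and was called for both components (adjusted p = 0.0293 at 24 hr and 0.0102 at 12 hr in limma). *Ern1*, the IRE1 kinase and nuclease that splices *Xbp1*, was at 45.5 ± 4.75 rpbp at ZT2 and 23.9 ± 1.10 rpbp at ZT6, with a 24 hr amplitude of 0.35 ± 0.05 (SE) and its peak at 22.1 hr. *Ern1* and *Xbp1* thus had their highest and lowest means at the same time points, ZT2 and ZT6. *Atf6* was at 42.9 ± 1.44 rpbp at ZT14 and 31.8 ± 8.54 rpbp at ZT22 and was not called for time of day (adjusted p = 0.267 in limma), but it was rhythmic at 12 hr by the study's criteria (12 hr amplitude 0.27 ± 0.08, SE).

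Among the 6 tested transcription factors of the list, *Atf5* alone was called by limma for time of day (20.4% of all genes). *Atf5*, a relative of ATF4 that PERK activity also raises, was at 566 ± 15.4 rpbp at ZT22 (SD, n = 2) and 204 ± 40.2 rpbp at ZT10, 2.78-fold apart, with its 24 hr peak at 22.5 hr. *Creb3l2* (15.96 ± 0.170 rpbp at ZT2 and 9.86 ± 1.56 at ZT18) and *Nfe2l2* (86.2 ± 0.283 rpbp at ZT6 and 36.5 ± 0.707 at ZT2) missed the threshold for time of day in limma, with an adjusted p of 0.0529 and 0.0687. By the study's criteria *Creb3l2* was rhythmic at 12 hr.

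Of the 20 targets of ATF4 and CHOP, 13 passed the minimum, and *Asns*, *Psat1*, *Phgdh* and *Nupr1* were among the 7 that did not. Time of day was called for 5 of the 13 (20.4% of all genes), the 24 hr component for 5 (21.2%) and the 12 hr component for 3 (5.99%), with *Trib3* and *Chac1* among those called for time of day and for 24 hr. *Cth*, an enzyme that makes cysteine, was at 592 ± 12.9 rpbp at ZT22 and 360.0 ± 16.4 rpbp at ZT2, with its 24 hr peak at 15.9 hr, whereas *Atf4* was highest at ZT2. The tRNA synthetase genes *Aars* (122 ± 1.499 rpbp at ZT2 and 78.6 ± 0.339 at ZT10) and *Wars* (22.9 ± 1.16 rpbp at ZT22 and 15.2 ± 0.113 at ZT18) were both called for the 12 hr component (adjusted p = 0.0249 and 0.0349 in limma), and *Aars* for the 24 hr component too (0.0120), which *Wars* missed (0.175).

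**Figure D5:**
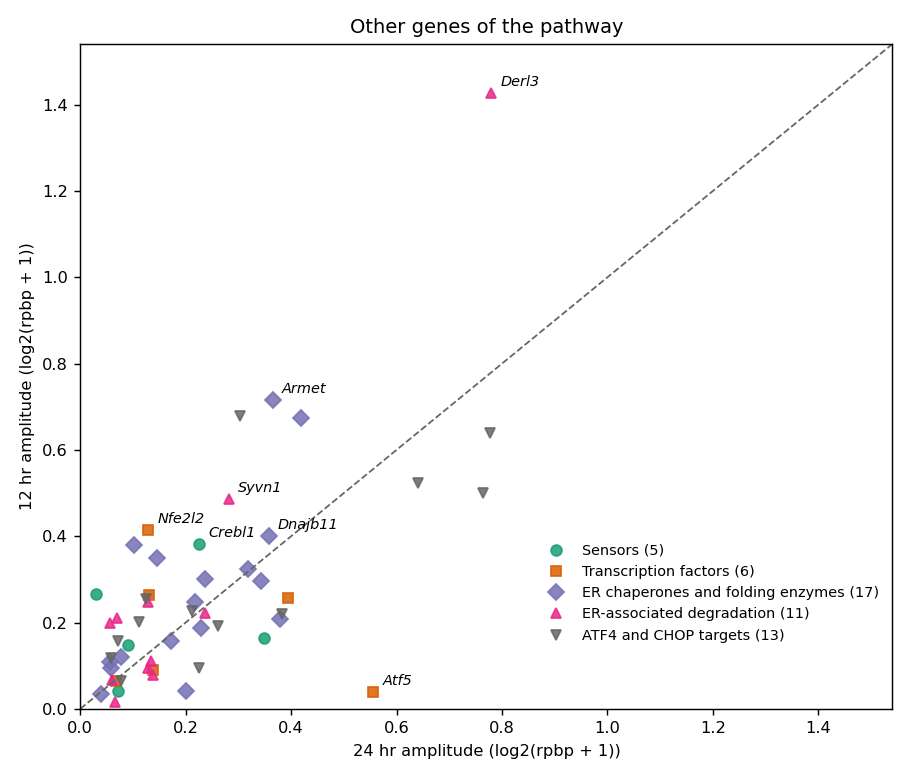
12 hr amplitude (vertical axis) against 24 hr amplitude (horizontal axis), both on the scale of log2(rpbp + 1), for the 52 tested genes of the 5 lists, with symbols and colours for the lists and a broken line for equal amplitudes. Names mark those of the 3 genes per list with the lowest p for time of day that have an amplitude above 0.35. Of the 52 genes, 28 lie above the line, with *Derl3* (1.43) and *Armet* (0.72) among the highest.

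Genes of similar course were sought with the members left out, by Pearson's r of log2(rpbp + 1) over the 12 samples. Those most like *Hspa5* were *Armet* (r = 0.98), *Hyou1* (0.97), *Syvn1* (0.96), *Cad* (0.96) and *Atp2a2* (0.94). *Hyou1* encodes the nucleotide exchange factor GRP170 of BiP, and *Atp2a2* encodes SERCA2, the pump that fills the ER with calcium. *Cad*, which encodes the enzyme that starts pyrimidine synthesis, was low, with 2.28 to 9.64 rpbp, and passed the minimum through its high samples.

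The genes nearest to *Herpud1* were C230093N12Rik (r = 0.97), *Per1* (0.96), *Rhbdd2* (0.96), *Usp2* (0.96) and *Lpin2* (0.96). *Per1* is a repressor of the circadian clock, and it varied from 0.68 to 13.8 rpbp with a 24 hr amplitude of 1.46. *Usp2*, a deubiquitinase, varied from 0.76 to 31.0 rpbp with a 24 hr amplitude of 2.13. The 24 hr amplitude of *Herpud1* was smaller, at 0.63.

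For *Xbp1* the nearest genes were *Aadat* (r = 0.96), *Crybb3* (0.95), *Nudt7* (0.94), *Il1r1* (0.94) and BC026374 (0.94). *Crybb3* and BC026374 were at 0.00 to 12.6 rpbp and 0.40 to 19.0 rpbp, and passed the minimum through their high samples. For *Atf4* they were *Prepl* (r = 0.97), *Atp11a* (0.96), *Calr* (0.96), *Mtap7d1* (0.95) and *Fga* (0.95). *Calr* encodes calreticulin, a calcium-binding chaperone of the ER, and varied from 722 to 1573 rpbp, and *Fga* encodes a chain of fibrinogen, a major protein secreted by the liver (3632 to 13317 rpbp). All samples of a time point share the time of day, so that many genes can have such coefficients.

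Among the members, the pairs with the most similar courses were *Hspa5* and *Creld2* (r = 0.97), *Hsp90b1* and *Sdf2l1* (0.93), *Hsp90b1* and *Pdia4* (0.92) and *Hspa5* and *Hsp90b1* (0.91). The 5 chaperone and folding genes *Hspa5*, *Hsp90b1*, *Pdia4*, *Sdf2l1* and *Creld2* had coefficients from 0.79 to 0.97 with each other. *Dnajb9* was apart, with 0.15 to 0.49 with these 5. *Xbp1* had 0.36 with *Hspa5* and 0.63 with *Atf4*. The series differed too, and their part in these coefficients was not tested. Series 2 was above series 1 for *Creld2* (1.92-fold in the means), *Sdf2l1* (1.53-fold), *Hspa5* (1.34-fold), *Pdia4* (1.23-fold) and *Hsp90b1* (1.22-fold), but near it for *Xbp1* (1.01-fold), *Atf4* (1.04-fold) and *Herpud1* (1.06-fold).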

How the data were processed

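Polyadenylated RNA of 12 liver samples was sequenced after an unstranded library preparation. The authors mapped the sequences to mm9 with TopHat, after CASAVA 1.8 according to the submitters' processing notes, kept those with a unique place, and summed the coverage over the merged exons of a gene. Divided by exon length (reads per base pair), this coverage is the deposited signal, on the authors' scale of 10000000 uniquely mapped sequences. The deposited F24 scores, phases and p-values of the authors' own comparison were not used. Signals were multiplied by 4 to reach the scale of the study's minimum (40000000 sequences). Columns named ZT20 were read as ZT22, since no sample is labelled ZT20.

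Rhythm calls used 100000 random orders of the 12 values (1-sided, seed 1). The model of 6 time means was fitted in limma 3.58.1 (R 4.3.3, trend in the prior variance, pseudocount 1), with F-tests of the contrasts, a 2-sided test of the amplitude difference, and Benjamini-Hochberg adjustment over 10198 genes. Both were tested on simulated data. Python 3.11.15, numpy 2.4.6, pandas 2.3.3 and matplotlib 3.10.9 were used. Gene coordinates are those of GENCODE on mm9. The members and lists were chosen with earlier results of these data known. Named were the members and the 3 genes of each list with the lowest limma p for time of day. For 4 members, the 5 genes of the highest r outside the members were also named. The alternatives changed the pseudocount, the expression minimum, the normalization, the trend, the scale of F, the hour of the last time point and the samples. Libraries of nascent RNA and ChIP were not analysed here.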

Additional observations from a re-analysis of the deposited data

How the results depend on the processing

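The deposited values are scaled coverage and carry no counts, the numbers of mapped sequences that the study lists per sample were not used here, and each time point has 2 samples. With 1 of the 12 samples left out in turn, the members called ranged from 2 to 8 for time of day (8 with all samples), from 2 to 7 for the 24 hr component in limma (4), from 0 to 6 for the 12 hr component (3), and from 0 to 1 for the difference of the amplitudes (0). They ranged from 2 to 4 for the 24 hr rhythm call (2) and from 0 to 4 for the 12 hr rhythm call (1). Over all genes these counts were 928 to 2023 (2076 with all samples), 1349 to 2000 (2160), 108 to 840 (611), 58 to 133 (116), 1603 to 2012 (1948) and 511 to 920 (776). *Herpud1* and *Atf4* were called for time of day and for the 24 hr component in limma under every alternative.

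Without an expression minimum, limma called 3 members for time of day (1469 of all genes), 2 for 24 hr (1671) and 0 for 12 hr (339), with more genes in the adjustment, and the 12 hr rhythm call took in 1238 of all genes. Without the trend it called 5 members for time of day (1792 of all genes), 3 for 24 hr (2023) and 0 for 12 hr (420). The 24 hr call lost without the trend was that of *Sdf2l1*. With size factors by the median of ratios, 5 members were called for time of day (2175 of all genes) and 0 by the 12 hr rhythm call (743), and the difference of the amplitudes of *Hsp90b1* was 0.00326 in place of −0.01. The 12 hr call of *Creld2* in limma was also lost with these size factors and with a pseudocount of 8. With F on the log2 scale, the 12 hr rhythm call took in 2 members (804 of all genes). With the adjusted p, the rhythm calls kept 1 member (*Herpud1*) at 24 hr and 0 at 12 hr, and 510 and 0 of all genes. Series 1 alone gave 1 member at 24 hr and series 2 alone 0 (286 and 369 of all genes), and both gave 0 at 12 hr, where 6 values cannot pass the threshold. With the last time point at 20 hr, 0 members were called at 12 hr (521 of all genes). The cause of these changes was not tested beyond what is stated.

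The sign of the difference of the amplitudes turned with 1 sample left out for 4 members with differences near 0. Over these fits the difference ranged from −0.126 to 0.111 for *Hsp90b1* (−0.01 with all samples), from −0.181 to 0.0230 for *Dnajb9* (−0.06), from −0.0741 to 0.1001 for *Ddit3* (0.02) and from −0.222 to 0.329 for *Sdf2l1* (0.06). No other member changed sign.

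The replicate numbers do not mark shared animals. Across the tested genes, deviations of same-numbered samples correlated with r = −0.15 to 0.21. There were 15 pairs of time points, with r above 0.1 in 2, so the main fit did not pair the samples. This correlation does not speak to single genes. Series 2 was above series 1 at all 6 time points for *Hspa5*, *Pdia4* and *Creld2*. The main fit leaves such a difference in the spread between the samples. With a replicate block, 8 members were called for time of day (1706 of all genes), 6 for the 24 hr component (1930), 2 for the 12 hr component (467) and 0 for the difference (96) in limma, and the rhythm calls took in 3 members at 24 hr (2120 of all genes) and 2 at 12 hr (895). The block brought in *Hspa5* (adjusted p = 0.0247) and *Creld2* (0.00870) at 24 hr and *Hsp90b1* for time of day (0.0481), and *Xbp1* was lost at 12 hr (0.0531) and *Dnajb9* for time of day (0.0533), all in limma. By the rhythm calls it brought in *Pdia4* at 24 hr and *Creld2* at 12 hr. The 2 calls kept at 12 hr in limma had a lower adjusted p with the block. It was 0.0162 for *Hspa5* (0.0384 without the block) and 0.00790 for *Creld2* (0.0454 without it).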

Other observations

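*Trib3* and *Chac1*, targets of ATF4 and CHOP that were named after their values were seen, had wide swings with peaks in the light phase. Both passed the minimum of 8 rpbp through their high time points, so no test is given here, and their calls in the counts of the lists carry no weight. *Trib3*, which encodes a pseudokinase, was at 11.5 ± 0.99 rpbp at ZT6 and 1.96 ± 1.64 rpbp at ZT14 (SD, n = 2), and its 24 hr amplitude was 0.78 ± 0.18 (SE) with the peak at 6.13 hr. *Chac1*, which encodes an enzyme that degrades glutathione, was at 12.9 ± 3.76 rpbp at ZT10 and 2.70 ± 0.877 rpbp at ZT18, and its 24 hr amplitude was 0.76 ± 0.18 with the peak at 10.4 hr. The 24 hr component of *Atf4* peaked at 23.2 hr.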
